A study of Mus musculus with 12 samples.

Results

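Of the 35852 mouse oligonucleotides printed on these arrays, 12 carry bases that read, in 1 of the 3 forward frames and with no stop codon in that frame, as the opening residues of an antibody light-chain variable region. They were chosen by sequence alone, as a stretch of 7 residues in a set order. It opens with an acidic residue, asparagine or glutamine, then isoleucine, valine or threonine. Next come valine, glutamine, leucine, lysine, threonine or glutamate, and then leucine, methionine or valine. It ends with threonine or serine, then glutamine, and last serine, alanine or threonine. No measured value entered that rule, although it was written with earlier results of these data known. Each of the 12 oligos is 60 bases long and sits on 1 spot per array. By translation of the bases around the stretch, 10 of them read as a light-chain start and 2 do not. A light-chain start was taken to have threonine before the glutamine, serine or threonine last, and proline, histidine or isoleucine straight after the stretch. That division was made with the values known.

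Gene expression was measured in spleen RNA from 12 female mouse samples, each hybridised to an array of its own against a common reference RNA. The groups were C57BL/6 at 4 months (n = 2) and the 564 Igi strain, on the C57BL/6 background, with 3 samples at 4 months, 3 samples at 8 months and 4 samples at 12 months. In 564 Igi mice, the rearranged heavy-chain and light-chain genes of 1 autoantibody are knocked in at the antibody loci, so that most B cells of the strain start from the same receptor. The sample labels give the genotype as 564+/-, while the text on treatment says that animals carrying both knock-ins in homozygous form, 564+/+, were used throughout, and the values used here do not settle which applies. Part of the 564+/+ colony drank water with ampicillin, metronidazole, neomycin and vancomycin, and the labels do not say whether these samples came from that part. C57BL/6 mice were measured at 4 months only, so the comparisons of older 564 Igi mice with them also differ in age. Nothing states that each sample was a separate animal, so a p-value reflects only how these samples vary, and that spread may be technical. Spleen RNA always carried the dye Cy3 and reference RNA the dye Cy5, so any dye effect is common to all groups. Values are log2 ratios of spleen RNA over reference RNA after normalization. The number of arrays limits their precision.

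An antibody light chain is built by joining 1 of many V segments to a J segment, and each V segment brings its own leader peptide and its own first framework. Framework 1 is the stretch of strands before the first antigen-contacting loop, and its opening residues are alike enough among kappa V segments to be recognised by eye, yet differ in a few positions from one V family to the next. The spleen of an ordinary mouse holds B cells that use many V segments, so oligos on several of them report on the breadth of the light-chain repertoire. A mouse with a rearranged light chain knocked in makes much of its light-chain RNA from that single gene, through allelic exclusion of the other loci, although cells can replace the receptor by editing. In RNA from a whole organ, fewer cells that use a V segment and less RNA per cell cannot be told apart.

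The 10 oligos that read as a light-chain start are shown because the results turn on which of them rose and which fell. Capitals mark the 21 bases that encode the 7 residues, and lower case marks the leader before them and the rest of framework 1 after them.
M400004394: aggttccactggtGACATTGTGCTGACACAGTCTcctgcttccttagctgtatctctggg
M400005826: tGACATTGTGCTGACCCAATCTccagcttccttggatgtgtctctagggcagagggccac
M400005938: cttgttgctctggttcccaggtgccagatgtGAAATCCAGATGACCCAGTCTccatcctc
M400006575: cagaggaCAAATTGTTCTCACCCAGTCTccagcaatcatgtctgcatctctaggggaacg
M400006779: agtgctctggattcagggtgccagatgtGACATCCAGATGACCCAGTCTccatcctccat
M400007007: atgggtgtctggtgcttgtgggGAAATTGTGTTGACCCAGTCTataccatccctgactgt
M400007071: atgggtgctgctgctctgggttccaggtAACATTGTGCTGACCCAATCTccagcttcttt
M400007133: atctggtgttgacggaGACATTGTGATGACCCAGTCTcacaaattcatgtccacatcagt
M400007996: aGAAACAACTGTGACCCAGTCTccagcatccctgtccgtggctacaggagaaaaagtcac
M400010427: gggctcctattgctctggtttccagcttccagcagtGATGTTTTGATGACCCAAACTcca

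Outside the stretch itself, these 10 oligos were alike in some ways and unlike in others. They differed in where the stretch falls, from 0 codons before it in M400005826 and M400007996 to 12 codons before it in M400010427, so some read mostly leader and others mostly framework 1. Among the light-chain starts, 8 carried a proline codon straight after the stretch, whereas M400007007 carried isoleucine and M400007133 histidine there. The division of the members allowed only these residues at that place. Sequences overlapped between some of them. M400005826 and M400007071 had a run of 28 identical bases and the same base at 31 of the 33 positions over which they align (93.9%). M400005938 and M400006779 had a run of 26 identical bases and 50 of 57 positions alike (87.7%). M400004394 and M400005826 matched at 41 of 48 positions (85.4%), with no identical run longer than 15 bases. Oligos this alike can bind RNA of each other's genes, so they are not independent measurements of separate V segments.

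The 2 other members are shown because they met the rule without reading as a light chain. Both have serine where the 10 others have threonine, straight before the glutamine. After the stretch, M200003524 has a lysine codon and M300003658 a glutamate codon. The division was made on these residues, so they are not a separate observation.
M200003524: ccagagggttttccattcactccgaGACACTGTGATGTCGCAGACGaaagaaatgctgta
M300003658: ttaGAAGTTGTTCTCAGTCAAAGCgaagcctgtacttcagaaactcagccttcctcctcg

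The scanner files gave no gene name and no chromosome position for any of the 12 oligos, so they are named here by their identifiers. All 12 passed the filter on dim oligos, which asks that the sample signal be well above background on all arrays of at least 1 group, and for 9 of them the sample and the reference signal both stood well above background on each of the 12 arrays. No member spot was saturated in the sample channel or left out for an uneven background. Sample signals were well above background for 69.4% to 75.9% of oligos on 11 arrays and for 91.2% on replicate 1 of the 564 Igi mice at 4 months.

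At 4 months, most light-chain starts were lower in 564 Igi spleen than in C57BL/6 spleen, and 1 was higher. In limma's test, with p-values adjusted by the Benjamini-Hochberg method over all 26279 oligos tested, 7 of the 12 members were lower and 1 was higher at an adjusted p under 0.05. Over all oligos, 0.339% were lower and 0.0685% were higher by the same rule, beside 58.3% and 8.33% of the members. The 7 that fell did so by 3.35-fold to 8.49-fold. The median log2 difference of the 12 members was -1.82, beside 0.0094 for all oligos tested. All 8 that changed were light-chain starts, and the 2 members that do not read as a light chain did not pass the test. Since that division was made with the values known, this contrast is a description and not independent evidence.

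M400004394, which begins in the leader 4 codons before framework 1, had the smallest adjusted p of the members. Its log2 ratio was 1.87 and 2.23 on the C57BL/6 arrays and -1.11, -1.22 and -0.79 on the 564 Igi arrays at 4 months. The groups were far apart, with no overlap. Its ratio fell by 3.09 on the log2 scale (SE 0.17), or 8.49-fold, with an adjusted p of 9.57e-07 in limma's test.

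M400005826 encodes the same 7 residues as M400004394 and starts 1 base before them. Its log2 ratio was 1.63 and 2.06 on the C57BL/6 arrays and -1.08, -1.12 and -0.97 on the 564 Igi arrays at 4 months. The 3 arrays of 564 Igi mice were close together and all lay below both C57BL/6 arrays. The difference was -2.90 (SE 0.24), a 7.45-fold lower ratio (adjusted p = 4.74e-05).

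M400006779 and M400005938 both read as starts in which glutamine is the third residue, the first with aspartate at its head and the second with glutamate. For M400006779 the log2 ratio was 2.46 and 3.83 on the C57BL/6 arrays and -0.23, 0.28 and 0.28 on the 564 Igi arrays at 4 months, a difference of -3.03 (SE 0.30, 8.19-fold, adjusted p = 0.000241). For M400005938 it was 2.32 and 3.31 against -0.06, 0.05 and 0.15, a difference of -2.77 (SE 0.21, 6.82-fold, adjusted p = 2.12e-05). In both oligos the C57BL/6 arrays stood apart from each other as well as from the 564 Igi arrays, and no arrays of the 2 strains overlapped. Without C57BL/6 replicate 2, the difference of M400006779 was -2.35, and without replicate 1 it was -3.72.

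M400007133, whose framework 1 runs on with histidine and lysine codons, had a bright reference signal, so that all its log2 ratios were negative. They were -3.52 and -3.65 on the C57BL/6 arrays and -5.83, -6.15 and -5.92 on the 564 Igi arrays at 4 months. The difference was -2.39 (SE 0.28), 5.22-fold lower (adjusted p = 0.00121). It did not pass when spots with uneven background were kept (-1.61, adjusted p = 0.198) or with median centring in place of loess (-1.91, adjusted p = 0.244). The sample signal was 819 and 879 on the C57BL/6 arrays and 162 to 374 over the 10 arrays of 564 Igi mice.

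M400007007, which reads glutamate, isoleucine and valine at its start, had log2 ratios of 0.96 and 2.23 on the C57BL/6 arrays and -0.23, -0.21 and -0.46 on the 564 Igi arrays at 4 months. The C57BL/6 arrays differed by more than 1 log2 unit, and both were still above all 3 of the others. The difference was -1.90 (SE 0.27, 3.72-fold, adjusted p = 0.00853). This oligo was dim in the knock-in strain, with the sample signal well above background on 2 of 3 arrays at 4 months, 1 of 3 at 8 months and 2 of 4 at 12 months. It passed the filter through the C57BL/6 arrays alone, so a lower ratio in 564 Igi mice was built into its being tested, and its fold depends on signals at the background. Of the 11 other members, 6 were lower. Its difference was -1.26 without C57BL/6 replicate 2 and -2.53 without replicate 1.

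M400007996 starts with glutamate followed by a pair of threonine codons. Its log2 ratio was 1.31 and 1.92 on the C57BL/6 arrays and -0.11, -0.24 and -0.03 on the 564 Igi arrays at 4 months. It fell by 1.74 on the log2 scale (SE 0.17, 3.35-fold, adjusted p = 0.000231), with no overlap between the groups.

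M400006575 was the member that rose. It reads glutamine, isoleucine, valine and leucine at the start of framework 1, and it is the only one of the 12 whose stretch begins with glutamine. Its log2 ratio was 2.70 and 3.51 on the C57BL/6 arrays and 5.65, 5.57 and 5.85 on the 564 Igi arrays at 4 months. All 3 arrays of 564 Igi mice lay above both C57BL/6 arrays, and the difference was 2.58 (SE 0.38), a 5.99-fold higher ratio (adjusted p = 0.00976). The sample signal was 582 and 838 on the C57BL/6 arrays and between 6949 and 27826 over the 10 arrays of 564 Igi mice. The reference signal moved in the same direction, from 80.9 and 87.8 to between 156.7 and 1036, although the reference is described as one RNA for all arrays. Its part in the result was not tested. In the sample channel alone the difference was 3.86 (adjusted p = 0.00191). With the ratio that the scanner software processed, the difference was 1.502 and did not pass the test (adjusted p = 0.355). Without C57BL/6 replicate 1 it was 2.18 (adjusted p = 0.12), and without 564 Igi 4 months replicate 3 it was 2.50 (adjusted p = 0.0536).

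The reference channel also moved with the sample channel for some oligos that fell. For M400005938 the reference signal was 115 and 156 on the C57BL/6 arrays and 70.2 to 91.7 on the 564 Igi arrays. For M400006779, both channels were raised on 564 Igi 4 months replicate 1, with a sample signal of 232 and a reference signal of 212. On the 564 Igi arrays the sample signal of M400005826 was 74.2 to 116 and that of M400007007 was 52.8 to 90.7, with local backgrounds of 24 to 32 and 23 to 31. At such signals the offset of 50 added to each channel pulls ratios towards 0. The software's processed ratio, made without that offset, gave differences of -3.80 for M400004394, -4.09 for M400005826, -2.40 for M400007996 and -3.51 for M400007007. M400007007 did not pass the test there (adjusted p = 0.127), nor did M400006779 (-3.02, adjusted p = 0.0784).

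Of the 10 light-chain starts, 2 did not pass the test at 4 months. M400007071, which reads asparagine at its head, had log2 ratios of -2.54 and -3.17 on the C57BL/6 arrays and -3.70, -3.94 and -3.25 on the 564 Igi arrays. All 3 arrays of 564 Igi mice were below both C57BL/6 arrays, with a difference of -0.78 (95% interval -1.36 to -0.20, adjusted p = 0.268). Its reference signal lay between 24297 and 47540 on all 12 arrays. M400010427, whose 60 bases are mostly leader, had log2 ratios of 0.23 and 0.40 on the C57BL/6 arrays and 0.14, -0.16 and 0.23 on the 564 Igi arrays, which overlap. Its difference was -0.24 (95% interval -0.54 to 0.05, adjusted p = 0.48), and -1.11 with the processed ratio (adjusted p = 0.347). It was dim in every group, with sample signals of 93.0 and 99.2 on the C57BL/6 arrays and 60.1 to 89.6 on the 564 Igi arrays, so a larger difference in its RNA could be hidden in the background.

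For the 2 members that do not read as a light chain, the groups lay close together. M200003524 had log2 ratios of -0.43 and -0.22 on the C57BL/6 arrays and 0.06, -0.15 and -0.13 on the 564 Igi arrays at 4 months, a difference of 0.25 (95% interval -0.04 to 0.54, adjusted p = 0.467). Each of these 564 Igi arrays lay above both C57BL/6 arrays. M300003658 had 0.40 and 0.46 against 0.50, 0.40 and 0.51, a difference of 0.04 (95% interval -0.21 to 0.29, adjusted p = 0.917). Both intervals leave out a change as large as any of the 8 that passed.

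Counted by overlap alone, all 3 arrays of 564 Igi mice at 4 months were below both C57BL/6 arrays for 8 of the 12 members, the 7 that fell and M400007071. Over all oligos measured on these arrays, 16.6% did the same. In the other direction, all 3 arrays were above both C57BL/6 arrays for 2 members, M400006575 and M200003524. The share of all oligos in that direction is not given here. The slide bears on these values, since 1 C57BL/6 array was on slide 2 and the other on slide 3. Replicate 2 of C57BL/6 had the higher ratio for 8 of the 10 light-chain starts, and the gap between the C57BL/6 arrays ran from 0.13 to 1.37 log2 units. Within slide 2, the only slide holding both groups at 4 months, the difference was -2.66 for M400004394, -2.60 for M400005826, -2.17 for M400005938, -2.18 for M400006779, -2.40 for M400007133, -1.43 for M400007007, -1.34 for M400007996 and 3.15 for M400006575. Each has the direction of the difference over all arrays, and each rests on 1 array of either group.

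At 8 months, 7 of the 12 members were lower and 1 was higher than in C57BL/6 at 4 months, beside 0.495% and 0.129% of all oligos. At 12 months, 7 were lower and 1 was higher, beside 0.586% and 0.32% of all oligos. Both counts of lower members include M400007007. It passed the filter through the C57BL/6 arrays alone, so a lower ratio in 564 Igi mice was built into its being tested. Since the 3 comparisons share the C57BL/6 arrays, their values are given side by side and not as independent evidence. The member that passed as higher was M400006575 at each age. The median log2 difference of the 12 members was -1.79 at 8 months and -1.65 at 12 months, beside -0.0014 and 0.0025 for all oligos. Every array of 564 Igi mice was below both C57BL/6 arrays for 9 members at 8 months (15.2% of all oligos) and for 9 at 12 months (10.1% of all oligos).

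The level of M400006575 was high on all 10 arrays of 564 Igi mice. Its log2 ratios were 6.20, 5.38 and 6.11 at 8 months and 5.36, 5.92, 5.50 and 6.76 at 12 months, against 2.70 and 3.51 in C57BL/6. It was 6.92-fold higher than in C57BL/6 at 8 months (adjusted p = 0.00422) and 6.87-fold higher at 12 months (adjusted p = 0.00209). With the processed ratio it did not pass at either age (adjusted p = 0.219 and 0.189), nor with uneven spots kept (adjusted p = 0.148 and 0.0889), nor at 8 months without C57BL/6 replicate 1 (adjusted p = 0.0637). The mean log2 ratio was lowest in C57BL/6, at 3.11 ± 0.58 (SD, n = 2). In 564 Igi mice it was 5.69 ± 0.14 (SD, n = 3) at 4 months, then 5.89 ± 0.63 (SD, n = 4) at 12 months, and 5.90 ± 0.45 (SD, n = 3) at 8 months. The ratios at the 3 ages of 564 Igi mice did not differ beyond their spread, but both channels were brighter at 12 than at 4 months. The sample signal was 10170.5 to 12335.3 at 4 months, 6949 to 23529 at 8 months and 16507 to 27826 at 12 months. The reference signal was 156.7 to 222.4, 197.4 to 284.0 and 352.3 to 1035.9 at these ages. A flat ratio therefore does not show that the sample signal was flat with age.

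M400004394 gave log2 ratios of -0.90, -1.23 and -1.11 at 8 months and -0.92, -0.88, -1.19 and -1.21 at 12 months. These fall in the same band as at 4 months, and the ratio was 8.74-fold lower than in C57BL/6 at 8 months (adjusted p = 8.22e-07) and 8.57-fold lower at 12 months (adjusted p = 4.71e-07). M400005826 gave -0.84, -1.03 and -1.35 at 8 months and -1.26, -0.57, -1.43 and -1.39 at 12 months, 7.56-fold and 8.04-fold lower than in C57BL/6 (adjusted p = 4.39e-05 and 1.71e-05). The spread of M400005826 was wider at 12 months, where replicate 2 stood above the other 3 arrays.

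M400005938 gave -0.12, 0.03 and 0.04 at 8 months and -0.03, 0.06, 0.05 and -0.05 at 12 months. It was 7.14-fold lower than in C57BL/6 at 8 months (adjusted p = 1.58e-05) and 7.02-fold lower at 12 months (adjusted p = 9.37e-06). M400006779 gave 0.06, 0.23 and 0.32 at 8 months and 0.25, 0.15, 0.30 and 0.13 at 12 months, 7.70-fold and 7.68-fold lower (adjusted p = 0.000308 and 0.00017). At 8 months it did not pass with the processed ratio (-3.08, adjusted p = 0.0624) or in a fit of only the 2 groups compared (adjusted p = 0.0571). The overlapping pair thus stayed near a ratio of 1 to the reference on all arrays of 564 Igi mice, where signals were mostly dim. For M400005938 the sample signal there was 65.7 to 107.3 and the reference signal 70.2 to 91.7, both well above background on all 10 arrays. The reference signal of M400006779 was well above background on 4 of 10 arrays. At such signals the offset pulls a ratio towards 1. These ratios therefore do not show a level equal to the reference, and the folds may be understated.

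M400007133 gave -5.93, -6.00 and -6.31 at 8 months and -4.68, -5.82, -5.43 and -5.82 at 12 months. It was 5.65-fold lower than in C57BL/6 at 8 months (adjusted p = 0.000691) and 3.62-fold lower at 12 months (adjusted p = 0.00435). The same 2 alternatives ended the call at both ages, with adjusted p of 0.155 and 0.0944 at 8 months and 0.286 and 0.158 at 12 months, as did leaving out C57BL/6 replicate 1 at 12 months (adjusted p = 0.0503). M400007007 gave -0.28, -0.50 and -0.20 at 8 months and -0.06, -0.45, -0.28 and -0.15 at 12 months, 3.79-fold and 3.56-fold lower (adjusted p = 0.00607 and 0.00435), folds that again rest on arrays mostly not well above background. M400007996 gave -0.11, -0.13 and 0.09 at 8 months and -0.04, 0.10, 0.19 and 0.36 at 12 months, 3.16-fold and 2.75-fold lower (adjusted p = 0.000321 and 0.00052). None of the arrays of 564 Igi mice reached the C57BL/6 arrays for these 3 oligos.

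Among the members that did not pass at 8 and 12 months were the same 2 light-chain starts. M400007071 gave -3.95, -3.42 and -4.18 at 8 months and -3.45, -3.36, -3.60 and -3.90 at 12 months, with differences from C57BL/6 of -0.998 (95% interval -1.58 to -0.42, adjusted p = 0.143) and -0.73 (95% interval -1.28 to -0.17, adjusted p = 0.259). At 8 months it passed with the slide as a block (-0.96, adjusted p = 0.0179) and without 564 Igi 8 months replicate 2 (-1.21, adjusted p = 0.0393). M400010427 gave 0.08, 0.07 and -0.14 at 8 months and -0.07, -0.04, 0.07 and -0.21 at 12 months, with differences of -0.31 (adjusted p = 0.33) and -0.38 (adjusted p = 0.251). For both oligos every array at these ages lay below both C57BL/6 arrays. The 2 members that do not read as a light chain overlapped C57BL/6 at both ages, with differences of 0.02 and 0.09 for M200003524 and 0.05 and -0.04 for M300003658.

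Between ages within 564 Igi mice, no member passed the test. At 8 against 4 months, 0 of the 12 members and 0% of all oligos passed limma's adjusted threshold, and 0 of the 12 members had an unadjusted p under 0.05, beside 3.14% of all oligos. At 12 against 4 months, 1 of the 12 members had an unadjusted p under 0.05, beside 7.66% of all oligos, and 0 members passed after adjustment, beside 0.00381% of all oligos. At 12 against 8 months, 1 of the 12 had an unadjusted p under 0.05, beside 4.21% of all oligos, and 0 members and 0% of all oligos passed. In the test of any difference among the 3 ages, 0 members passed, beside 0.00381% of all oligos.

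M400007133 was the member with an unadjusted p under 0.05 in both comparisons with 12 months. It was higher at 12 than at 4 months by 0.53 on the log2 scale (95% interval 0.02 to 1.04, adjusted p = 0.651) and higher at 12 than at 8 months by 0.64 (95% interval 0.13 to 1.15, adjusted p = 0.99). At 12 months, replicate 1 gave -4.68, above the other 3 arrays at -5.82, -5.43 and -5.82. Within slide 1, which holds replicate 1, the difference between 12 and 4 months was 1.31, and within slide 2 it was 0.10.

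The intervals limit what a lack of calls can mean. For M400006575, the difference in log2 ratio between 8 and 4 months was 0.21 (95% interval -0.54 to 0.95), and between 12 and 4 months it was 0.20 (95% interval -0.50 to 0.90). Over all 12 members, the lowest bound of any interval between ages was -0.74 and the highest was 1.15. Differences between ages smaller than these bounds were not resolved, whereas the differences of the 8 members from C57BL/6 were larger.

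Of the oligos outside the 12, 5 share a run of at least 20 bases with a member. Their shared runs cover leader and framework 1 bases, except that of M400008278, which lies in the leader alone. All 5 end before the stretch is complete. The pair below is shown because in each case the neighbour and the member it overlaps fell on opposite sides of the test's threshold, a difference that is tested below over all ages. Capitals mark the run shared with the member, M400005938 for the first and M400010427 for the second.
M400005937: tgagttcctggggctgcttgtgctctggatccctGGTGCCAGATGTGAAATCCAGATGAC
M400009425: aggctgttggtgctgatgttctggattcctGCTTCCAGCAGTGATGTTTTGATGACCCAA

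M400005937 shares 26 bases with M400005938, which fell 6.82-fold. Its own log2 ratio was -0.51 and -0.01 on the C57BL/6 arrays and -0.72, -0.69 and -0.73 on the 564 Igi arrays at 4 months, a difference of -0.46 that did not pass the test (adjusted p = 0.26). M400009425 shares 30 bases with M400010427, the dim member that did not pass. Its log2 ratio was 1.41 and 1.53 against -0.15, -0.01 and -0.26, a difference of -1.61 (SE 0.11, 3.06-fold, adjusted p = 4.97e-06). Its sample signal was well above background on 6 of the 10 arrays of 564 Igi mice, all 3 of those at 4 months included.

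The 3 remaining neighbours had differences nearer to those of their members. M400006778, which shares 26 bases with M400006779, had a difference of -2.59 at 4 months (adjusted p = 4.88e-05). M400001204, which shares 22 bases with M400006779, was not well above background on any of the 10 arrays of 564 Igi mice, so it has only a bound there. It was at least 16.1-fold lower in the sample channel at 4 months. That bound was taken against the lowest signal that counted as well above background on each array, or the oligo's own signal where that was higher. The difference in its ratio, another measure, was -3.12 (adjusted p = 2.69e-06 in limma's test). M400001204 passed the filter through the C57BL/6 arrays alone, so a lower ratio in 564 Igi mice was built into its being tested. M400008278, which shares 27 bases of leader with M400007071, had a difference of -0.62 (95% interval -1.33 to 0.09, adjusted p = 0.46).

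For the 7 pairs of oligos that share at least 20 bases, the difference between their log2 ratios on each array was compared between the 10 arrays of 564 Igi mice of all ages and the 2 C57BL/6 arrays. An exact two-sided permutation test can go no lower than 0.0303 here, and 4 of the 7 pairs reached that floor. After Benjamini-Hochberg adjustment over the 7 pairs, these 4 had an adjusted p of 0.053. No pair passed at 0.05. Over all ages, the mean difference from C57BL/6 was -2.95 for M400005826 and -0.82 for M400007071, which have 28 bases in a row in common. Their ratios differed by 2.17 to 3.11 on the 564 Igi arrays and by 4.17 to 5.22 on the C57BL/6 arrays, with no overlap (exact permutation p = 0.0303, adjusted p = 0.053). M400005938 and M400005937, M400010427 and M400009425, and M400006779 and M400006778 also had no overlap between the strains, and the means of their differences from C57BL/6 lay -2.44, 1.31 and -0.48 apart. How often other pairs of oligos have no overlap was not counted. Among single oligos, 10.1% to 16.6% had every 564 Igi array of a given age below both C57BL/6 arrays. M400010427, M400009425 and M400006779 were also not well above background in both channels on every array. For M400005938 and M400006779, whose mean differences were -2.81 and -2.97, these lay 0.16 apart (exact permutation p = 0.242, adjusted p = 0.339).

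The light-chain starts were last summarised by array. Set against the C57BL/6 mean of each oligo, the median log2 ratio of the 10 light-chain starts was between -2.26 and -1.65 on the 10 arrays of 564 Igi mice. It was -0.26 and 0.26 on the 2 C57BL/6 arrays, values that mirror each other by construction because the mean of these arrays was subtracted. The 10 oligos include those already called lower. The array closest to C57BL/6 was replicate 1 at 12 months and the farthest was replicate 3 at 8 months. Replicate 1 at 4 months, on which more oligos were above background than on any other array, had a median of -2.04 and was within the range of the other arrays of its strain.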

How the data were processed

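Spleen RNA (Cy3) and reference RNA (Cy5) were measured on 12 arrays. Spots were read by Agilent Feature Extraction, version 11.5.1.1 per the file headers. The deposited intensity columns hold the mean brightness and the median local background of each spot on the linear scale, not normalized. The deposited log10 ratio of reference over sample was normalized by that software and served as an alternative, with its sign turned.

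Intensities were background-corrected with normexp (offset 50) and normalized within arrays by loess in limma 3.58.1 (R 4.3.3), with control spots at weight 0. Spots with uneven local background were left out. Spots of an oligo were averaged. Oligos well above background in Cy3 on all arrays of at least 1 group were kept (26290 of 35852), and 26279 were tested in 1 fit over the 12 arrays with a term per group. Oligos were called at an adjusted p under 0.05. The offset understates differences of dim oligos.

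Sequences were read from the scanner files and translated with Biopython 1.88. Every oligo found by the rule is named, and any other only if it shares at least 20 bases with one of them. No oligo could be paired with a gene, so lists of cell type markers and the labelled tissue were not checked and V genes are not named. The sequence rule and the lists were written with earlier results of these data known. The fit was tested on simulated data. Alternatives covered the background correction, offset, centring, filter, channel, slide, replicate number and each array in turn.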

Additional observations from a re-analysis of the deposited data

How the results depend on the processing

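The count of members lower than C57BL/6 stayed between 5 and 7 at 4 months and 12 months and between 5 and 8 at 8 months under the alternatives run. The 1 member called higher, M400006575, was lost at all 3 ages (0 called) when spots with uneven background were kept (2.05 at 4 months, adjusted p = 0.155) and with the scanner's processed ratio. Leaving out 1 array at a time gave 0 to 1 members called higher at 4 months and 0 to 1 at 8 months; C57BL/6 replicate 1 did so at both, and 564 Igi 4 months replicate 3 at 4 months. With the processed ratio the median difference of the members was -2.46 at 4 months and -2.49 at 8 months against C57BL/6, -0.15 at 8 against 4 months and -0.13 at 12 against 4 months. The median at 12 against 4 months was -0.14 with median centring, 0.091 within slide 1 and -0.094 within slide 2, and -0.07 to 0.062 with 1 array left out. The median at 8 against 4 months was 0.066 within slide 1. At 12 against 8 months it was 0.0025 to 0.12 with 1 array left out, the highest without 564 Igi 8 months replicate 1. At 4 months against C57BL/6, M300003658 turned to -0.13 with uneven spots kept and to -0.015 with the slide as a block, and M400010427 to 0.0050 within slide 2. M400007133 did not pass with uneven spots kept (-1.61, adjusted p = 0.198) or with median centring (-1.91, adjusted p = 0.244). M400007007 did not pass in a fit of only the 2 groups compared (-1.90, adjusted p = 0.0769). At 8 months M400007007 did not pass with the processed ratio (adjusted p = 0.0626) or in the fit of only the 2 groups (adjusted p = 0.172), and M400007071 passed as lower with the slide as a block (adjusted p = 0.0179). The cause of these changes was not tested.

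Replicate numbers were not taken to pair the samples: of 15 pairs of arrays from different groups with the same number, 5 had deviations that correlated above 0.1. Deviations of the C57BL/6 arrays mirror each other by construction, so this check cannot settle whether the numbers pair them. Arrays of different groups on the same slide had a median correlation of 0.13, against -0.087 on different slides. The main fit had no term for slide. With the replicate block, 6 members were lower and 1 higher at 4 months, M400007007 being lost (-1.89, adjusted p = 0.0558), and 7 and 1 at 8 and 12 months. The signal over background limits M400007007, M400010427, M400006779, M400001204 and M400009425, which were not well above background in both channels on every array.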
